A study of Homo sapiens with 18 samples.

Results

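The 31 genes described here make cholesterol and fatty acids or control that synthesis. They were taken by gene symbol from the 60622 genes of the deposited tables, all 31 were found, and none was lost to the filter on low counts in any comparison. They fall into 18 enzymes of the sterol pathway, 4 regulators and transport genes (INSIG1, SREBF1, SREBF2 and STARD4) and 9 enzymes of fatty acid and lipid synthesis. RNA came from H1299, an established line of human lung carcinoma (the non-small cell type) in which p53 protein is missing. Induced cells held wild-type p53 under doxycycline control, joined to FKBP12F36V and HA tags. Titles of the non-induced samples name H1299 alone and leave the presence of that construct unstated. Cells of either state were exposed for 24 h to AceTAG p300/CBP-1 (hereafter the p300/CBP compound), AceTAG PCAF/GCN5-4 (the PCAF/GCN5 compound) or DMSO, the vehicle. AceTAG compounds are heterobifunctional, with one end that binds the FKBP12F36V tag and another that binds the named acetyltransferases. The 6 groups were thus induced p300/CBP, induced PCAF/GCN5, induced DMSO, non-induced p300/CBP, non-induced PCAF/GCN5 and non-induced DMSO, with 3 libraries each. Doses, the use of doxycycline in non-induced cells and the origin of replicates in separate cultures are not stated in the labels, and p-values therefore measure only the spread between these samples.

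Cells adjust sterol and fatty acid synthesis through SREBP transcription factors, which SREBF1 and SREBF2 encode. When membrane sterols run low, the escort protein SCAP carries SREBP out of the endoplasmic reticulum, proteases of the Golgi release its active part, and this part enters the nucleus and raises transcription of the enzymes. INSIG1 holds SCAP back when sterols are plentiful and is itself an SREBP target. SREBP-2 mainly drives the sterol branch and SREBP-1 the fatty acid branch, and both often act beside the factor NF-Y, which binds CCAAT boxes. The acetyltransferases p300 and CBP are known coactivators of SREBP.

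Total counts per library ran from 9055888 (non-induced DMSO replicate 3) to 29166322. At these depths each member had at least 44 counts in every library, the lowest being CYP51A1. Of the 4 markers taken for the labelled line, KRT8 (68.6 to 98.7 CPM, counts per 1000000 of the library total), KRT18 (154 to 315 CPM) and VIM (2366 to 3989 CPM) were present in every library. EPCAM was at or near 0, with no read in 14 of 18 libraries and at most 3 reads in any. The 4 adipocyte markers summed to at most 0.797 CPM, the blood cell markers to at most 0.273 CPM, the endothelial markers to at most 0.857 CPM and the fibroblast markers to at most 2.59 CPM. Of the 4 hepatocyte markers, ALB, APOA1 and TTR were at most at 0.0803 CPM, and the sum, 20.3 to 31.9 CPM in induced and 14.3 to 18.3 CPM in non-induced libraries, came almost wholly from SERPINA1. Among the markers of the line, VIM ran from 2366 to 2836 CPM in induced and from 3266 to 3989 CPM in non-induced libraries, whereas the ranges of KRT8 and KRT18 overlapped between states. The part of these markers in the results was not tested. As a check of the labels, CDKN1A, a target of p53, rose on induction in DMSO (log2 fold change 1.95 ± 0.07 SE, adjusted p = 1.06e-06), and it was at 1.95 ± 0.05 without induced DMSO replicate 3. Replicate 3 of induced DMSO stood apart from its partners. Mitochondrial RNA gave 0.714% of its counts, whereas replicates 1 and 2 had 1.84% and 2.14%. The PCAF/GCN5 groups also spread in this share, though less. Non-induced PCAF/GCN5 replicate 1 had 1.32% and its partners 2.26% and 2.11%, and induced PCAF/GCN5 libraries had 2.45%, 1.88% and 1.39%. Counts of called genes that use induced DMSO replicate 3, and the calls of the members named, are given with and without that library.

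Levels differed widely among the members. CPM are shares of a library, so fewer cells that express a gene and less RNA per cell cannot be told apart. Scaled to the exon length in the files, SCD, which desaturates stearoyl-CoA, was the highest with 139.9 CPM per kb over the 18 libraries. The cytosolic thiolase ACAT2 (56.0 CPM per kb), the citrate lyase ACLY (47.4 CPM per kb) and the fatty acid synthase FASN (46.2 CPM per kb) came next. The lowest were the demethylase CYP51A1 (1.76 CPM per kb) and the desaturase FADS2 (1.32 CPM per kb). The widest ranges between libraries, as the highest over the lowest, belonged to CYP51A1 (4.29 to 15.6 CPM), the sterol reductase TM7SF2 (19 to 67.8 CPM) and the mevalonate pathway kinase PMVK (19.4 to 59.3 CPM). The upper ends of CYP51A1 and PMVK were both induced DMSO replicate 3, and without it they reached 8.45 and 36.9 CPM. TM7SF2 (3.57 times) and SCD (2.13 times) then had the widest ranges. The narrowest belonged to the squalene epoxidase SQLE (1.19 times, 145 to 172 CPM) with all libraries and to ACLY (1.16 times) without that one.

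Promoter sequence from RefSeq (GRCh38.p14, the 250 bases before each annotated start, both strands) was found for 27 of the 31 members, all but ACAT2, FASN, FDFT1 and SQLE. The letters CCAAT occurred in 20 of these 27, against 37% of 27305 genes, and in 7 of 7 members that rose with the p300/CBP compound in non-induced cells, as described below, against 13 of the other 20. The letters CACNCCAC, the core of the sterol regulatory element, occurred in 6 of 27 members (ACACA, IDI1, INSIG1, SC5D, SCD and SREBF2) and 5.89% of all genes. Of those 6, IDI1, INSIG1 and SCD were among the 7 that rose. The longer TCACNCCAC was found in SREBF2 alone, and in 1.09% of all genes. The shorter form was chosen after the longer one had been searched, and a match describes letters, not a bound site.
The 80-base windows below, printed 5′ to 3′ on the gene's strand, show these letters upstream of members that rose. Capitals mark CCAAT and CACNCCAC on either strand (ATTGG and GTGGNGTG on the other). SREBF2, which did not pass the test with all libraries, is added as the only member with the longer element. The window of HMGCS1, the remaining riser, runs into its annotated gene by 14 of its 80 bases and is not shown. IDI1 has windows before different annotated starts. The one with its CACNCCAC lies inside the annotated gene with all 80 bases and is not shown either.
INSIG1, chr7:155297648-155297727, plus strand: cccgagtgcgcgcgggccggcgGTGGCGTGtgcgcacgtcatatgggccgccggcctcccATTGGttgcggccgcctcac
SCD, chr10:100347047-100347126, plus strand: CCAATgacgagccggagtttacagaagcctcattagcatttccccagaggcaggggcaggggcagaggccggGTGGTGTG
STARD4, chr5:111512640-111512719, minus strand: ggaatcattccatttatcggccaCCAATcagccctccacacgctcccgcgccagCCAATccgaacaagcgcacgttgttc
MSMO1, chr4:165327522-165327601, plus strand: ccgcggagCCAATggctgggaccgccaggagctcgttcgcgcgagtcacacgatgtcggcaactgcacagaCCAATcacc
TM7SF2, chr11:65111760-65111839, plus strand: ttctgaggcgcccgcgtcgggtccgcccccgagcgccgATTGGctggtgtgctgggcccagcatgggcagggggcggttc
IDI1, chr10:1049255-1049334, minus strand: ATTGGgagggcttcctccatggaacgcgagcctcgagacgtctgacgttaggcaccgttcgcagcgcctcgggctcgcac
SREBF2, chr22:41832946-41833025, plus strand: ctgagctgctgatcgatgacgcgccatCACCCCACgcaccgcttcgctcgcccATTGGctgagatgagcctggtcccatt
In these windows INSIG1, SCD and SREBF2 carried both elements, STARD4 and MSMO1 carried 2 CCAAT boxes each, and TM7SF2 and the IDI1 window shown carried 1 CCAAT box.

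The first comparison asks what the p300/CBP compound did in cells without induction. There, 7 of the 31 members rose and none fell in edgeR's quasi-likelihood test (Benjamini-Hochberg adjusted p below 0.05, fitted over all genes). Over all tested genes, 3.43% rose and 6.46% fell, 9.89% in all. The risers were 4 of 18 sterol enzymes (HMGCS1, IDI1, MSMO1 and TM7SF2), 2 of 4 regulators and transport genes (INSIG1 and STARD4) and 1 of 9 fatty acid enzymes (SCD). The median log2 fold change was 0.07 for sterol enzymes, 0.22 for regulators and transport genes and 0.03 for fatty acid enzymes, against 0.00 for all genes, and 23 of 31 members lay above 0.

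Among the regulators, INSIG1 had 82.2, 85.7 and 89.8 CPM with the p300/CBP compound and 67.3, 67.5 and 63.1 CPM with DMSO, a log2 fold change of 0.36 ± 0.05 SE (adjusted p = 0.000464; later values in this form are the same quantities). STARD4, a carrier of cholesterol between membranes, had 59.6, 60.5 and 79.3 CPM with the compound and 54.9, 56.5 and 48.0 CPM with DMSO (0.28 ± 0.09, adjusted p = 0.0461). In both genes every compound library lay above every DMSO library, and the nearest STARD4 libraries were at 59.6 and 56.5 CPM. With all libraries the genes of the factors themselves did not pass in edgeR: SREBF2 was at 0.16 ± 0.05 (adjusted p = 0.057) and SREBF1 at 0.05 ± 0.06 (adjusted p = 0.63).

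Sterol enzymes were led by TM7SF2, which reduces a ring double bond of the lanosterol derivatives. It had 28, 28.2 and 31.3 CPM with the p300/CBP compound and 20.9, 19.9 and 19 CPM with DMSO (0.52 ± 0.08, adjusted p = 0.000317). MSMO1, the oxidase that removes sterol methyl groups, had 41.0, 43.1 and 45.4 CPM with the compound and 35.5, 34.1 and 34 CPM with DMSO (0.30 ± 0.06, adjusted p = 0.00687). Both groups of libraries were apart in each gene. IDI1, which isomerises the building block isopentenyl diphosphate, had 79.9, 85.2 and 93.7 CPM with the compound and 68.0, 74.1 and 75 CPM with DMSO (0.24 ± 0.06, adjusted p = 0.022). HMGCS1, which makes HMG-CoA at the head of the mevalonate pathway, had 84.5, 80.1 and 94.5 CPM with the compound and 76.3, 74.5 and 69.0 CPM with DMSO (0.21 ± 0.06, adjusted p = 0.037). Again no library of one group reached the other, but the gaps were narrower. The cyclase LSS (0.18 ± 0.06, adjusted p = 0.063) was the sterol enzyme nearest to the threshold among those that did not pass, and CYP51A1 had the lowest value (-0.24 ± 0.17, adjusted p = 0.40).

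SCD was the riser among the fatty acid enzymes, with 1038, 1012 and 1113 CPM with the p300/CBP compound and 743, 792 and 784 CPM with DMSO (0.43 ± 0.05, adjusted p = 3.05e-05). Its lowest compound library was above its highest DMSO library by more than either group's range. None of the other 8 passed. FASN (0.06 ± 0.07), the carboxylase ACACA (0.03 ± 0.05), ACLY (0.02 ± 0.05) and the desaturase FADS1 (-0.02 ± 0.06) were close to 0. The acetyl-CoA synthetase ACSS2 (0.16 ± 0.07), the phosphatidate phosphatase LPIN1 (0.16 ± 0.06), FADS2 (-0.11 ± 0.11) and the elongase ELOVL6 (-0.14 ± 0.07) had adjusted p-values of 0.13 to 0.60. SCD, INSIG1 and TM7SF2 kept their call whichever library was left out. MSMO1 lost it without DMSO replicate 2 (adjusted p = 0.061). IDI1 lost it without compound replicate 2, DMSO replicate 1 or DMSO replicate 2 (adjusted p up to 0.165). HMGCS1 (up to 0.15) lost it without compound replicate 3 or without any single DMSO library, and STARD4 (up to 0.188) without any library but compound replicate 1. The count of risers was 4 without DMSO replicate 1, 3 without DMSO replicate 2, and 5 without DMSO replicate 3 or compound replicate 2. It was 8 without compound replicate 1, where ACSS2 rose, and 8 without compound replicate 3, where FASN, SREBF2 and LSS rose. DESeq2 called 8 on all libraries, SREBF2 among them. TM7SF2 overlaps VPS51 on the same strand, and VPS51 was at -0.03 (adjusted p = 0.77) in this comparison. Of the markers of the line, KRT18 fell (-0.24 ± 0.06, adjusted p = 0.0224), and KRT8 (-0.15, adjusted p = 0.0997) and VIM (0.01, adjusted p = 0.91) did not pass.

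**Figure D1:**
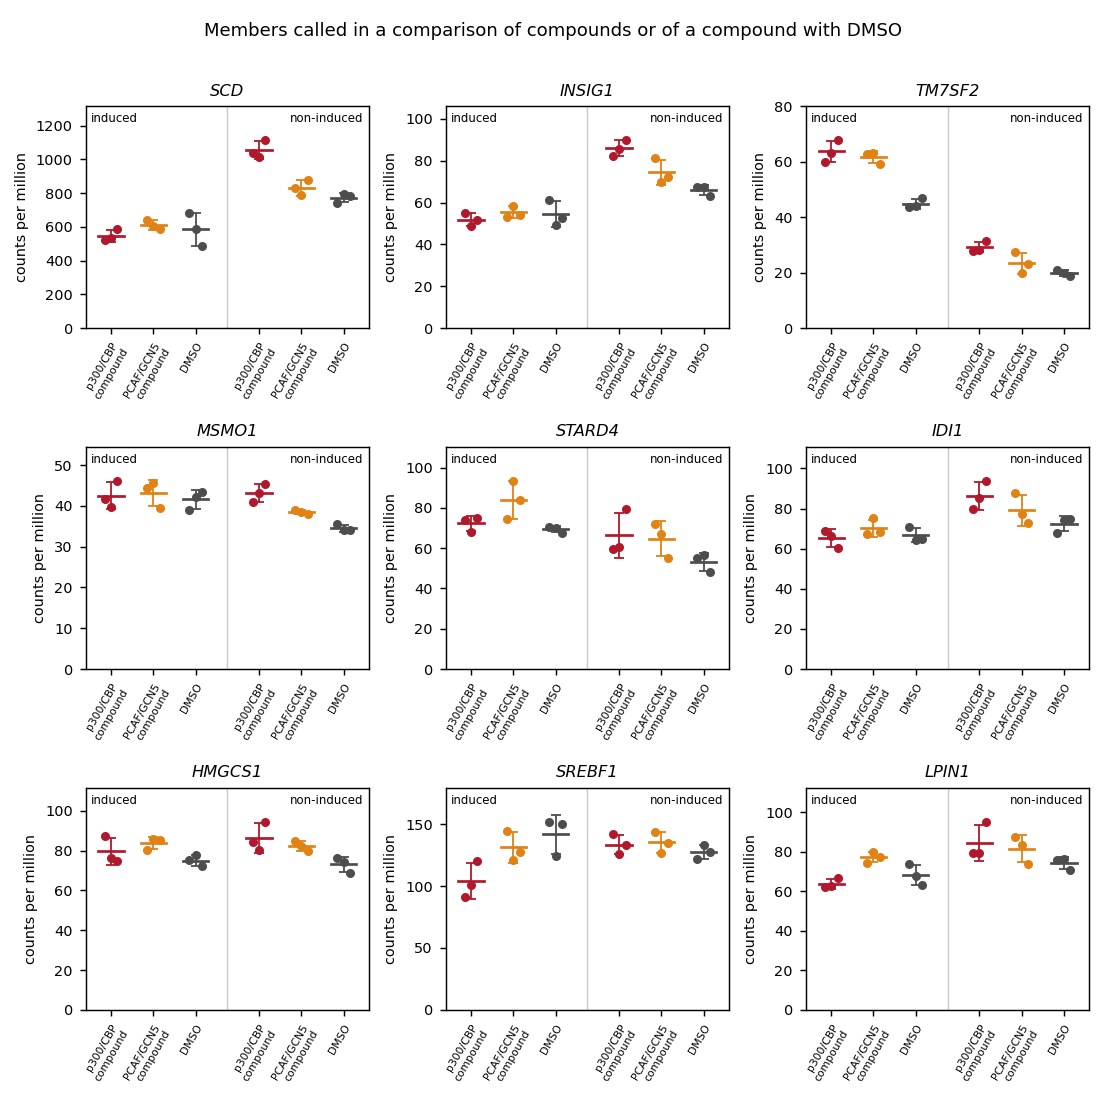
Level in CPM (vertical axes) of the 9 members called in a comparison of a compound with DMSO or of both compounds, in the 6 groups. Points are libraries, with the mean and SD of 3. Non-induced SCD libraries with the p300/CBP compound lie between 1012 and 1113 CPM, above all 6 others of that state, whereas the induced groups overlap.

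With all libraries, fewer members were called for the p300/CBP compound in induced cells than in non-induced cells, an order that turned in other fits. The sterol enzyme TM7SF2 rose, the regulator SREBF1 fell, and no other member passed, against 2.94% of all genes that rose and 3.04% that fell, 5.98% in all. TM7SF2 had 60.1, 63.3 and 67.8 CPM with the compound and 43.8, 44.0 and 46.9 CPM with DMSO (0.50 ± 0.08, adjusted p = 0.00563), with the groups apart. SREBF1 had 91.6, 101 and 120 CPM with the compound and 152, 124 and 150 CPM with DMSO (-0.46 ± 0.11, adjusted p = 0.0477). The highest compound library of SREBF1 came close to DMSO replicate 2. TM7SF2 lost its call without compound replicate 3 (adjusted p = 0.0531), and SREBF1 without any compound library or DMSO replicate 1 (adjusted p up to 0.208). The number of members called was 1 without compound replicate 1 or 2 or DMSO replicate 1, 0 without compound replicate 3, and 3 without DMSO replicate 2, where FASN fell as well. Without DMSO replicate 3, 1 member rose and 7 fell, as described below. The same counts, 1 and 7, came with all 6 groups in 1 fit and with no filter on low counts. In non-induced cells those 2 fits called 4 and 7 members, all higher. VPS51, which overlaps TM7SF2, was at -0.27 (adjusted p = 0.31) with all libraries and -0.04 (adjusted p = 0.62) without DMSO replicate 3. RAI1, on the strand opposite to SREBF1, was at -0.12 (adjusted p = 0.26) with all libraries and -0.08 (adjusted p = 0.21) without that one. Markers of the line moved in the same comparison: KRT18 (-0.74 ± 0.12, adjusted p = 0.0069) and KRT8 (-0.37 ± 0.07, adjusted p = 0.0167) fell, and VIM was at -0.07 (adjusted p = 0.61). Without DMSO replicate 3 all 3 fell, KRT18 by 0.57, KRT8 by 0.38 and VIM by 0.14 on the log2 scale. Their part in the fall of SREBF1 was not tested.

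With all libraries, the 6 members other than TM7SF2 that had risen in non-induced cells lay near 0 in induced cells. SCD had 522, 532 and 588 CPM with the p300/CBP compound and 683, 589 and 487 CPM with DMSO (-0.11 ± 0.11), and its groups overlapped. INSIG1 had 54.8, 48.9 and 51.9 CPM with the compound and 61.2, 49.2 and 52.7 CPM with DMSO (-0.08 ± 0.09). MSMO1 (0.02 ± 0.09), STARD4 (0.05 ± 0.06), IDI1 (-0.04 ± 0.08) and HMGCS1 (0.08 ± 0.08) had adjusted p-values between 0.57 and 0.89. Without DMSO replicate 3, INSIG1 (-0.09 ± 0.06), MSMO1 (0.07 ± 0.07), STARD4 (0.04 ± 0.05), IDI1 (-0.05 ± 0.06) and HMGCS1 (0.06 ± 0.05) again did not pass, with adjusted p-values between 0.33 and 0.69. SCD fell in that fit, with the values given below.

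Induced DMSO replicate 3 moved these values. It lay more than 0.5 log2 units above the mean of its partners for 4 members and below it for 1, while replicates 1 and 2 differed by at most 0.40 in any member. CYP51A1 had 15.6 CPM there against 5.22 and 6.91 CPM in replicates 1 and 2, PMVK 59.3 against 28.7 and 32.2 CPM, the decarboxylase MVD 98.3 against 58.6 and 54.1 CPM, and the isomerase EBP 28.1 against 17.1 and 16.9 CPM. FADS1 was low, with 63.2 against 95 and 94.3 CPM. Of these 5, 4 are sterol enzymes and 1 is a fatty acid enzyme. With all tested genes in 4 equal classes of G and C content, its median log2 ratio to its partners was -0.16 in the lowest class and 0.17 in the highest, where the ratio of replicate 1 to 2 gave -0.03 and 0.05. In 4 equal classes of exon length, the median ratio of replicate 3 to its partners was 0.058 in the shortest class and -0.109 in the longest. For replicate 1 to 2 it was 0.025 and -0.015. Over the 31 members, the log2 ratio of replicate 3 to its partners had a Spearman correlation of 0.37 with G and C content and -0.33 with exon length. CYP51A1 had 41.5% G and C in its longest transcript, PMVK 59.5%, MVD 63.7%, EBP 53.5% and FADS1 50.1%. PMVK (1002 bases of exon) and EBP (1768 bases) are short. The part of composition or length in the members' values was not tested.

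Without this library, TM7SF2 rose (0.54 ± 0.06, adjusted p = 1.04e-12) and 7 members fell in induced cells with the p300/CBP compound, against 10.3% of all genes that rose and 10.9% that fell, 21.2% in all. The 7 were SREBF1 (-0.40 ± 0.05, adjusted p = 1.94e-09), ACAT2 (-0.16 ± 0.05, adjusted p = 0.00619) and 5 of the 9 fatty acid enzymes. Those 5 were SCD (-0.22 ± 0.04, adjusted p = 7.53e-05), FASN (-0.20 ± 0.04, adjusted p = 0.000109), ELOVL6 (-0.25 ± 0.07, adjusted p = 0.00496), FADS2 (-0.37 ± 0.11, adjusted p = 0.00573) and LPIN1 (-0.15 ± 0.06, adjusted p = 0.04). All 9 fatty acid enzymes then lay below 0, with a median of -0.15, against -0.03 for the sterol enzymes and 0.00 for all genes. FADS2 spans FEN1 on its own strand, and FEN1 was at -0.97 (adjusted p = 0.0122) in the fit with all libraries and -0.73 (adjusted p = 1.69e-15) without DMSO replicate 3. In that last fit TCP1, which overlaps ACAT2 on the opposite strand, fell as well (-0.13, adjusted p = 0.0183).

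**Figure D2:**
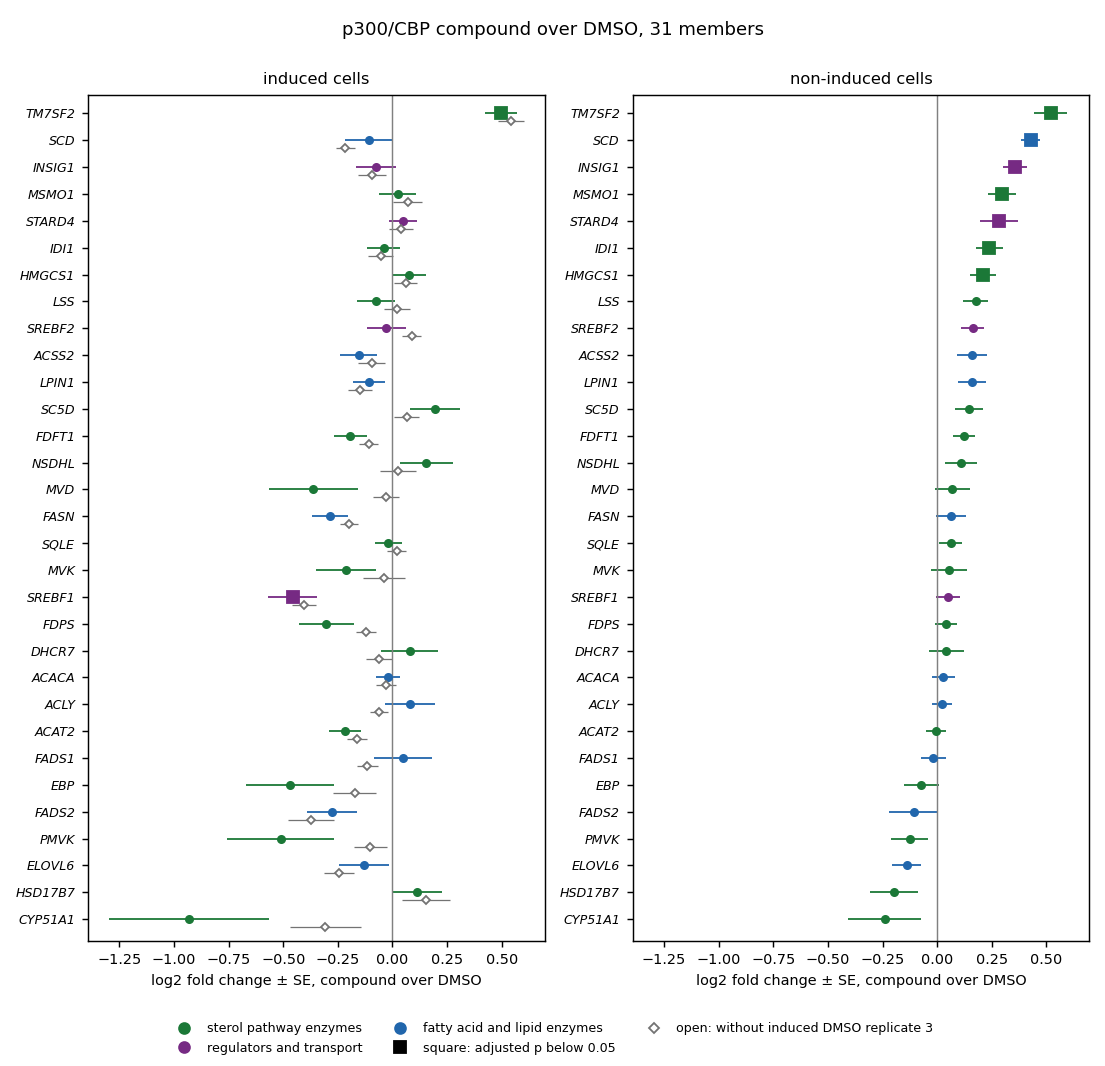
Log2 fold change ± SE (horizontal axis) of the 31 members with the p300/CBP compound over DMSO in induced (left) and non-induced cells (right), ordered by the value in non-induced cells. Squares passed the test, 2 in induced and 7 in non-induced cells, and open diamonds are induced values without DMSO replicate 3, where PMVK, EBP and CYP51A1 lie nearer 0.

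Whether the response to the p300/CBP compound differed by state was tested as an interaction, the effect in induced cells minus that in non-induced cells. No member passed in edgeR, against 1.28% of all genes (1.09% higher and 0.192% lower in induced cells). An unadjusted p below 0.05 was met by 12 of 31 members and by 1634 of 15618 tested genes. The nearest were SCD (-0.52 ± 0.12, adjusted p = 0.0519), INSIG1 (-0.43 ± 0.11, adjusted p = 0.0783) and SREBF1 (-0.50 ± 0.13, adjusted p = 0.0987). The interaction lay below 0 in 24 of 31 members, 14 of 18 sterol enzymes, 4 of 4 regulators and transport genes and 6 of 9 fatty acid enzymes, and in 7829 of 15618 tested genes. The median was -0.24 for the members and 0.00 for all genes. TM7SF2, the member that rose in both states, had an interaction of -0.02 with a 95% interval of -0.23 to 0.20, and 0.02 without induced DMSO replicate 3.

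Leaving out induced DMSO replicate 3 brought 3 members past the threshold, against 0.839% of all genes with a lower response in induced cells, 1.89% with a higher one and 2.73% in all. They were SCD (-0.64 ± 0.08, adjusted p = 2.96e-06), INSIG1 (-0.45 ± 0.10, adjusted p = 0.00709) and SREBF1 (-0.46 ± 0.11, adjusted p = 0.0181), the same 3 that DESeq2 called on all libraries. The sign was then negative in 28 of 31 members, with a median of -0.11. By group, the median was -0.10 for sterol enzymes, -0.34 for regulators and transport genes and -0.26 for fatty acid enzymes. With all libraries those medians were -0.25 for sterol enzymes, -0.33 for regulators and transport genes and -0.15 for fatty acid enzymes, so the order of the sterol and fatty acid medians turned with 1 library. Of the other libraries left out in turn, INSIG1 and SREBF1 passed without induced DMSO replicate 2, SREBF1 passed without induced p300/CBP replicate 3, and no member passed without any other.

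With the PCAF/GCN5 compound no member passed in edgeR in either state. In induced cells 0.338% of all genes rose and 0.00663% fell (0.345% in all), and in non-induced cells 0.00662% rose and 0.0132% fell (0.0199% in all). An unadjusted p below 0.05 was met by 3 members in induced and 4 in non-induced cells. Over all genes it was met by 1530 of 15078 in induced and 959 of 15100 in non-induced cells. DESeq2 called 1 member in induced and 0 in non-induced cells. TM7SF2 had 63.0, 63.2 and 59.4 CPM with this compound and 43.8, 44.0 and 46.9 CPM with DMSO in induced cells (0.43 ± 0.09, adjusted p = 0.101). Its groups did not overlap there, and it passed with DESeq2 and, in edgeR, without induced DMSO replicate 3 (0.47 ± 0.08, adjusted p = 0.00601). In that fit 0.717% of all genes rose and 0.0261% fell, 0.743% in all. In non-induced cells it had 27.5, 19.9 and 23 CPM with the compound and 20.9, 19.9 and 19 CPM with DMSO (0.21 ± 0.10, adjusted p = 0.79), which overlapped. The 7 members that rose with the p300/CBP compound in non-induced cells were between 0.09 (SCD) and 0.25 (STARD4) with the PCAF/GCN5 compound there. Both compounds were compared with the same DMSO libraries. No member passed in the interaction of the PCAF/GCN5 compound with state, against 0.0632% of all genes higher and 0.00632% lower in induced cells (0.0696% in all). There 5 members had an unadjusted p below 0.05, as did 1148 of 15813 tested genes. DESeq2 called 0 members. Without induced DMSO replicate 3 no member passed either, against 0.142% higher and 0.00618% lower (0.148% in all).

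The compounds were then compared directly, as 1 pair in 2 states, at doses that the labels do not give. In non-induced cells SCD alone differed, with 1038, 1012 and 1113 CPM with the p300/CBP compound and 828, 786 and 877 CPM with the PCAF/GCN5 compound. The log2 difference was 0.34 ± 0.07 (95% interval 0.20 to 0.48, adjusted p = 0.0233), the groups were apart, and 0.159% of all genes were higher with the p300/CBP compound and 0.932% lower, 1.09% in all. It did not pass without p300/CBP replicate 2 or 3 or PCAF/GCN5 replicate 2 (adjusted p up to 0.155), and TM7SF2 passed as well without PCAF/GCN5 replicate 1. With all libraries TM7SF2 (0.31, interval 0.09 to 0.54, adjusted p = 0.16) and INSIG1 (0.21, interval 0.06 to 0.35, adjusted p = 0.17) did not pass, though their groups were apart as well.

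In induced cells LPIN1 alone differed between the compounds, against 1.87% of all genes that were higher with the p300/CBP compound and 2.25% lower, 4.12% in all. It had 62.2, 62.6 and 66.7 CPM with the p300/CBP compound and 74.6, 79.8 and 77.4 CPM with the PCAF/GCN5 compound (-0.26 ± 0.06, interval -0.38 to -0.13, adjusted p = 0.0166), and the groups were apart. Its call ended without any of the p300/CBP libraries (adjusted p up to 0.127). SREBF1 had 91.6, 101 and 120 CPM with the p300/CBP compound and 145, 121 and 128 CPM with the PCAF/GCN5 compound (-0.32 ± 0.09, interval -0.50 to -0.13, adjusted p = 0.0503). Its nearest libraries were at 120 and 121 CPM, and it passed without p300/CBP replicate 3 or PCAF/GCN5 replicate 2. STARD4 passed without PCAF/GCN5 replicate 1. Of the markers of the line, KRT18 was lower with the p300/CBP compound here (-0.30 ± 0.06, adjusted p = 0.00471). The 95% interval of the difference between compounds included 0 for 27 of 31 members in induced and 22 of 31 in non-induced cells, and over all members the bounds reached -0.57 and 0.35 in induced and -0.65 and 0.54 in non-induced cells.

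Induction itself, in DMSO, raised 3 members and lowered 4, against 6.01% of all genes that rose and 7.77% that fell, 13.8% in all. As non-induced cells may not have received doxycycline and may lack the construct, p53 and these cannot be told apart here. TM7SF2 had 43.8, 44.0 and 46.9 CPM in induced and 20.9, 19.9 and 19 CPM in non-induced cells (1.14 ± 0.08, adjusted p = 5.23e-05). STARD4 had 70.6, 70.2 and 67.6 CPM in induced and 54.9, 56.5 and 48.0 CPM in non-induced cells (0.35 ± 0.07, adjusted p = 0.0149). FDFT1, the squalene synthase, had 203, 201 and 234 CPM in induced and 167, 162 and 162 CPM in non-induced cells (0.35 ± 0.08, adjusted p = 0.0167). All 3 were apart between states, and TM7SF2 had the largest change of any member in any comparison. VPS51, which overlaps it, was at 0.31 (adjusted p = 0.23), and at 0.08 (adjusted p = 0.18) without induced DMSO replicate 3. Of the markers of the line, VIM fell on induction (-0.51 ± 0.08, adjusted p = 0.00336), while KRT8 (-0.05, adjusted p = 0.72) and KRT18 (0.00, adjusted p = 0.997) did not pass. Without induced DMSO replicate 3, VIM (-0.44 ± 0.04) and KRT18 (-0.16 ± 0.04) fell.

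With all libraries, the members that fell were mostly fatty acid enzymes, 3 of 9. Their median was -0.24 over the 9, with 8 of 9 below 0, against 0.01 for the sterol enzymes and 0.01 for all genes. This contrast narrowed without induced DMSO replicate 3, where 7 of 18 sterol and 6 of 9 fatty acid enzymes fell, with medians of -0.13 and -0.23. FADS1, which makes polyunsaturated fatty acids, had 95, 94.3 and 63.2 CPM in induced and 127, 137 and 138 CPM in non-induced cells (-0.70 ± 0.14, adjusted p = 0.00969). SCD had 683, 589 and 487 CPM in induced and 743, 792 and 784 CPM in non-induced cells (-0.43 ± 0.11, adjusted p = 0.0288). In each the lowest induced library was replicate 3, and the groups did not meet. ACACA, which makes malonyl-CoA, fell too (-0.24 ± 0.06, adjusted p = 0.0338), with 114, 112 and 108 CPM in induced and 134, 121 and 130 CPM in non-induced cells. ACAT2 was the 1 sterol enzyme that fell (-0.25 ± 0.07, adjusted p = 0.0353), with 138, 131 and 147 CPM in induced and 163, 162 and 162 CPM in non-induced cells. It shares its locus with TCP1 and a barely expressed entry named SOD2 on the other strand. TCP1 was at 0.09 (adjusted p = 0.71). A different entry named SOD2, with a mean of 90.2 CPM, was at -0.26 ± 0.09 (adjusted p = 0.10). That entry is not the one that overlaps ACAT2, so its values say nothing about reads shared with ACAT2. Without induced DMSO replicate 3 ACAT2 was at -0.31 ± 0.04 (adjusted p = 3.29e-08). TCP1 (-0.10, adjusted p = 0.0338) and the different SOD2 entry (-0.38, adjusted p = 5.08e-09) fell too in that fit.

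TM7SF2 kept its call without any single library. FADS1 lost it without non-induced DMSO replicate 2 or 3 (adjusted p up to 0.0586), and FDFT1 without any non-induced DMSO library (up to 0.0929). STARD4 lost it without induced replicate 1 or non-induced replicate 1 or 3 (up to 0.0659). SCD (up to 0.132) lost it without induced replicate 2 or any non-induced library, and ACACA and ACAT2 (up to 0.182 and 0.146) held it only without induced replicate 3. The number of members called was 4 without induced replicate 2, 2 without non-induced replicate 1 or 2, and 1 without non-induced replicate 3.

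Without induced DMSO replicate 3, 5 members rose and 14 fell on induction, against 15.3% and 17.2% of all genes, 32.5% in all. The additional risers were MSMO1 (0.19 ± 0.07, adjusted p = 0.0214) and the desaturase SC5D (0.31 ± 0.06, adjusted p = 2.39e-05). The 14 that fell comprised 7 of 18 sterol enzymes, INSIG1 (-0.30 ± 0.06, adjusted p = 0.000114) and 6 of 9 fatty acid enzymes. FASN (-0.28 ± 0.04, adjusted p = 3.43e-07), the isoprenoid synthase FDPS (-0.29 ± 0.04, adjusted p = 2.32e-07) and LSS (-0.26 ± 0.06, adjusted p = 0.000285) were among them. The median of the sterol enzymes moved to -0.13, while that of the fatty acid enzymes was -0.23. FADS1 was then at -0.54 ± 0.05, SCD at -0.32 ± 0.04, FDFT1 at 0.26 ± 0.04 and TM7SF2 at 1.09 ± 0.07.

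**Figure D3:**
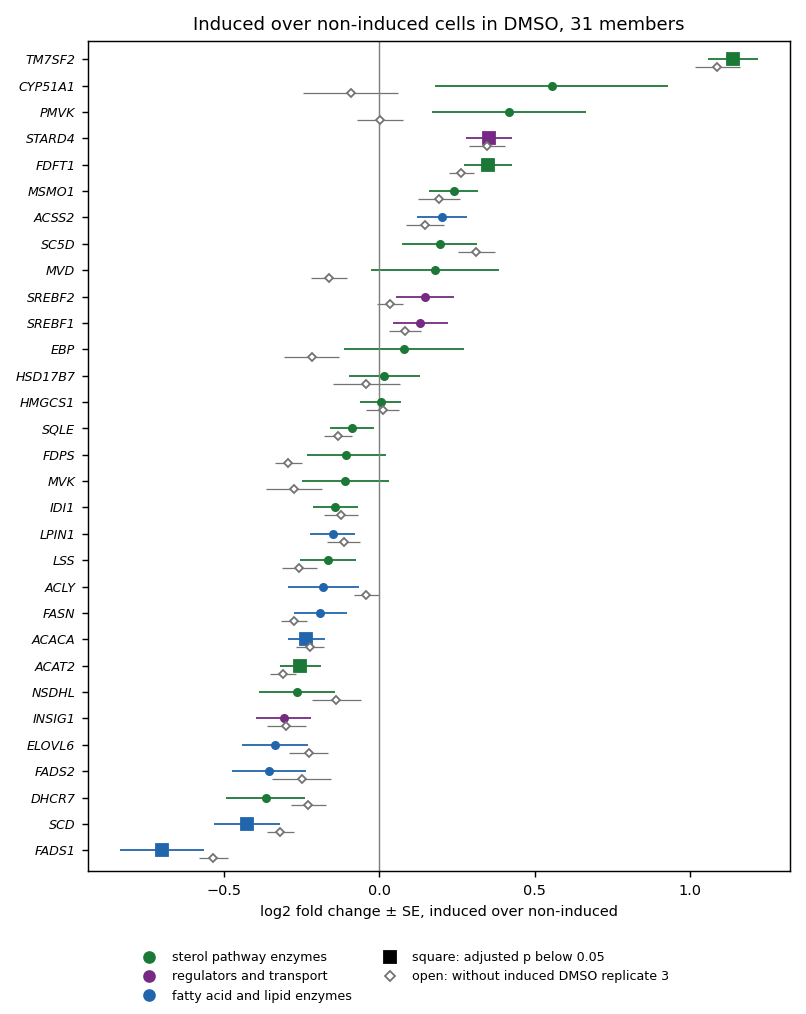
Log2 fold change ± SE (horizontal axis) of the 31 members in induced over non-induced cells in DMSO. Squares passed the test with all libraries, 3 above and 4 below 0, and open diamonds, drawn under each member, leave out induced DMSO replicate 3.

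**Figure D4:**
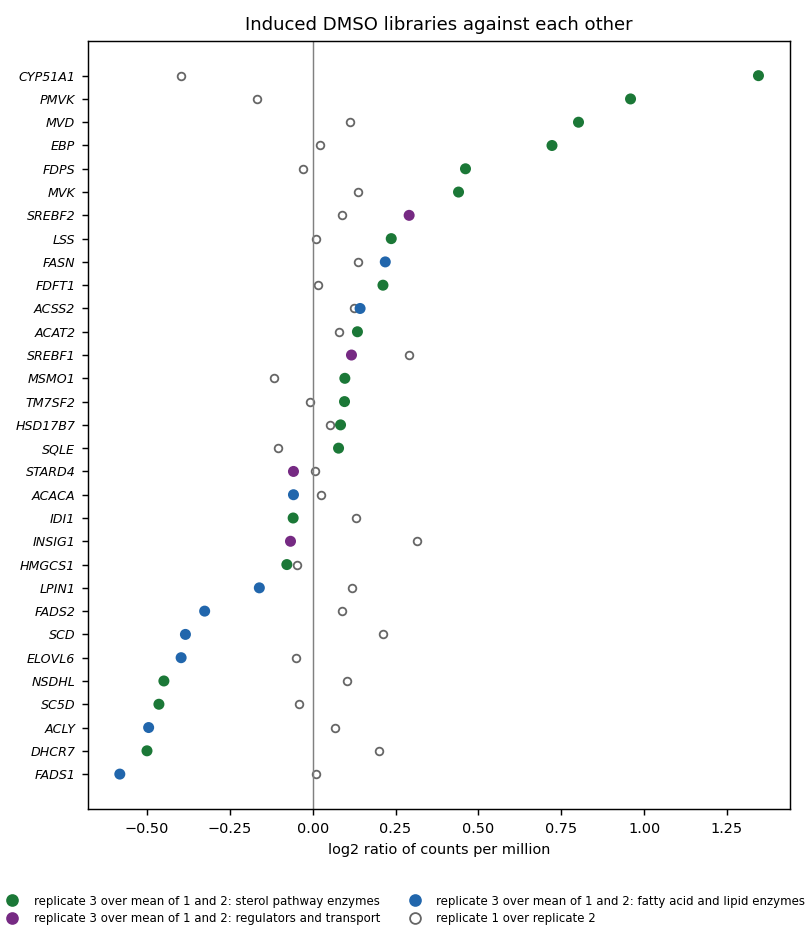
Log2 ratio of CPM, with 0.1 CPM added, of induced DMSO replicate 3 over the mean of replicates 1 and 2 (filled points) and of replicate 1 over 2 (open points) for each member. CYP51A1, PMVK, MVD and EBP lie above 0.5 and FADS1 below -0.5, and no open point passes 0.40 in size.

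Summed over the group, the fatty acid enzymes were apart between the states and the sterol enzymes overlapped. The 9 fatty acid enzymes summed to 1468, 1474 and 1539 CPM with the p300/CBP compound, 1654, 1550 and 1559 CPM with the PCAF/GCN5 compound and 1751, 1596 and 1467 CPM with DMSO in induced cells. In non-induced cells they summed to 2327, 2223 and 2281 CPM with the p300/CBP compound, 1991, 1947 and 2064 CPM with the PCAF/GCN5 compound and 1903, 1960 and 1976 CPM with DMSO. Every induced library was thus below every non-induced one, and SCD and FASN made up the largest shares of these sums. Taken singly, SCD, FADS1 and ACACA were apart between the states in this way. FASN, ACLY, ELOVL6, FADS2, ACSS2 and LPIN1 overlapped. Among the sterol enzymes, ACAT2 was lower and TM7SF2 higher in every induced library than in any non-induced one, opposite shifts that the sum does not show. The 18 sterol enzymes summed to between 1135 and 1346 CPM in induced and 1156 and 1321 CPM in non-induced libraries, which overlapped, and the highest value of all was induced DMSO replicate 3. The sums of the regulators and transport genes ran from 402 to 487 CPM in induced and 414 to 485 CPM in non-induced libraries. No test was made on the sums.

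**Figure D5:**
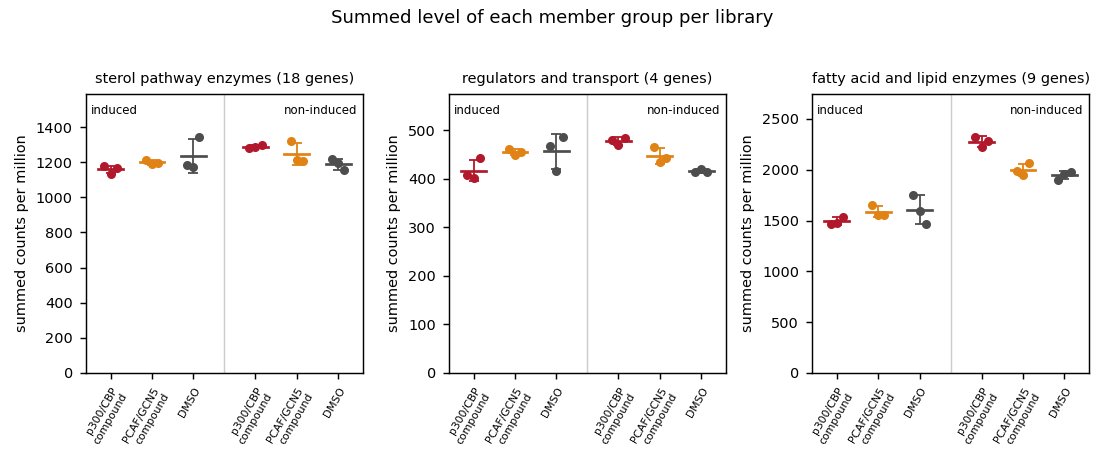
Summed CPM (vertical axes, from 0) of the 3 member groups in each library, with the mean and SD of 3 libraries per group. The fatty acid enzymes lie between 1467 and 1751 CPM in induced and between 1903 and 2327 CPM in non-induced libraries.

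Other genes of the same metabolism were followed in 5 lists. With the p300/CBP compound in non-induced cells, where 3.43% of all genes rose and 6.46% fell, 1 of 4 further SREBP regulators rose (the protease MBTPS1, 0.17 ± 0.05, adjusted p = 0.0247). Of 10 genes of sterol transport and esterification 2 rose, the efflux pump ABCA1 (0.40 ± 0.10, adjusted p = 0.014) and the lysosomal carrier NPC2 (0.24 ± 0.07, adjusted p = 0.0277). Of 8 fatty acid oxidation genes 2 rose, among them CPT2 (0.29 ± 0.08, adjusted p = 0.0236). In the isoprenoid branch 1 of 11 fell, PDSS1, which makes the side chain of coenzyme Q (-0.59 ± 0.13, adjusted p = 0.00954). Of 13 further genes of fatty acid synthesis and activation, the ligase ACSL3 rose (0.19 ± 0.05, adjusted p = 0.0228) and the mitochondrial transferase MCAT fell (-0.30 ± 0.08, adjusted p = 0.0234).

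In induced cells, where 2.94% of all genes rose and 3.04% fell, the p300/CBP compound raised 1 gene of each of 3 lists, the acyltransferase SOAT1, which esterifies cholesterol (0.31 ± 0.07, adjusted p = 0.0321), the second stearoyl-CoA desaturase SCD5 (0.46 ± 0.08, adjusted p = 0.00884) and CPT2 (0.41 ± 0.10, adjusted p = 0.0415). SCD5 passed in the interaction as well (0.50 ± 0.11, adjusted p = 0.0392, against 1.09% of all genes higher), where SCD was at -0.52, and it passed there without induced DMSO replicate 3 (0.53 ± 0.11, adjusted p = 0.00418). No gene of the 5 lists passed with the PCAF/GCN5 compound in either state. Between 0 and 2 genes per list had an unadjusted p below 0.05 there. Over all genes 1530 of 15078 did so in induced and 959 of 15100 in non-induced cells. On induction in DMSO, where 6.01% of all genes rose and 7.77% fell, 4 of 8 oxidation genes rose, among them CPT2 (0.34 ± 0.10, adjusted p = 0.0494) and ACADVL (0.30 ± 0.09, adjusted p = 0.0496). SOAT1 (1.03 ± 0.07, adjusted p = 4.58e-05) and ABCA1 (0.56 ± 0.10, adjusted p = 0.00541) rose. Of the 13 further genes of fatty acid synthesis and activation 3 rose and 1 fell, among them ELOVL7 (0.60 ± 0.14, adjusted p = 0.021) and SCD5 (0.32 ± 0.09, adjusted p = 0.0489), which rose, and ELOVL5 (-0.38 ± 0.10, adjusted p = 0.0379), which fell. One of 4 further SREBP regulators rose (MBTPS1, 0.27 ± 0.06, adjusted p = 0.0121) and 1 of 11 isoprenoid genes fell (the methyltransferase ICMT, -0.31 ± 0.06, adjusted p = 0.00648).

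Every list gene called with all libraries in induced cells with the p300/CBP compound or on induction was also called, with the same sign, without induced DMSO replicate 3, including SOAT1 (0.26 ± 0.04 with the compound and 1.07 ± 0.05 on induction) and SCD5 (0.50 ± 0.07 with the compound and 0.28 ± 0.08 on induction). More list genes then passed, as did more of all genes. With the p300/CBP compound in induced cells, against 10.3% of all genes that rose and 10.9% that fell, 2 of 4 SREBP regulators, 3 of 10 sterol transport genes, 3 of 13 genes of fatty acid synthesis and activation and 2 of 8 oxidation genes rose, and 1 oxidation gene fell. On induction, against 15.3% of all genes that rose and 17.2% that fell, 5 of 8 oxidation genes rose and 1 fell, 4 of 13 genes of fatty acid synthesis and activation rose and 4 fell, and 1 of 11 isoprenoid genes rose and 2 fell. With the PCAF/GCN5 compound no list gene passed in edgeR without this library either.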

How the data were processed

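Per the labels' protocols, total RNA libraries were made with a directional kit, and the submitters' processing notes name StringTie and DESeq2 without versions. The aligner, genome build, counting program and use of strand are not given in the sources used here. Positions of all 31 members overlapped GENCODE release 29 on GRCh38. Per the file headers, each of 4 deposited tables holds raw counts per gene for 6 libraries. In the table of the p300/CBP compound in non-induced cells, the line of ANK2 is broken and a line of totals follows. The DMSO counts were therefore taken from the other non-induced table (181866 of 181866 compared values equal). ANK2 was left out. Another 24 columns of values per library, scaled by the authors, were not used.

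CPM are counts per 1000000 of the library total. Every comparison used its groups alone and all their genes, in R 4.3.3 with the package edgeR 4.0.16 (filterByExpr, TMM, 2-sided quasi-likelihood F test), with Benjamini-Hochberg adjustment and a threshold of 0.05. SE is the size of the log2 fold change over the square root of F, and 95% intervals come from the same fit. Scripts were tested on simulated data. There were 7 comparisons of groups and 2 interactions. Alternatives were RLE size factors, no filter, DESeq2 1.42.0, all 6 groups in 1 fit, the replicate number as a block, and each library left out. Members and lists were chosen with earlier results of these data known. All 31 members could be named, values per library were given for those called in a compound comparison, and at most the 3 called genes of largest change per further list and comparison were named, except 1 gene that is not reported here. No replicates were duplicates: their counts differed by at least 1.8 chi-square units per gene. The widest differences within a group were 49.6 units in induced DMSO, 18.7 in non-induced PCAF/GCN5 and 13.6 in induced PCAF/GCN5.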

Additional observations from a re-analysis of the deposited data

How the results depend on the processing

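No called member changed direction under any alternative run. Of the values of single called members 143 stayed on their side of the threshold and 55 lost their call. Counts of called members and of all called genes moved by over 1.5 times as follows. With all 6 groups in 1 fit, the p300/CBP compound called 4 members and 615 genes in non-induced cells (7 and 1478 as reported) and 8 members and 2214 genes in induced cells (2 and 898). In that fit the PCAF/GCN5 compound called 0 genes in non-induced cells (3 as reported) and 1 member and 352 genes in induced cells (0 and 52). Induction called 11 members and 3455 genes (7 and 2075), the contrast of compounds in induced cells 0 members and 394 genes (1 and 617), the p300/CBP interaction 2 members (0) and the PCAF/GCN5 interaction 38 genes (11). With no filter on low counts, the p300/CBP compound called 8 members and 2106 genes in induced cells, and the PCAF/GCN5 compound 48 genes in non-induced cells and 4 members and 541 genes in induced cells. Induction then called 12 members, the contrast of compounds 594 genes in non-induced cells (165) and 2 members in induced cells, the p300/CBP interaction 6 members and 416 genes (200), and the PCAF/GCN5 interaction 2 members and 258 genes. DESeq2 called 5 genes for the PCAF/GCN5 compound in non-induced cells and 1 member and 106 genes in induced cells, 422 genes between compounds in non-induced cells and 2 members in induced cells, 3 members in the p300/CBP interaction and 45 genes in the PCAF/GCN5 interaction. RLE size factors brought 1 member past the threshold in the p300/CBP interaction. The cause of these moves was not tested.

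With each library left out in turn, called members and genes ranged as follows. The p300/CBP compound gave 3 to 8 members and 527 to 2384 genes in non-induced cells, and 0 to 8 members and 263 to 3234 genes in induced cells. The PCAF/GCN5 compound gave 0 members and 0 to 17 genes in non-induced cells, and 0 to 1 members and 29 to 114 genes in induced cells. Induction gave 1 to 19 members and 869 to 5001 genes. Between compounds there were 0 to 2 members and 1 to 310 genes in non-induced cells, and 0 to 2 members and 236 to 1098 genes in induced cells. The p300/CBP interaction gave 0 to 3 members and 123 to 432 genes, and the PCAF/GCN5 interaction 0 members and 8 to 24 genes.

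Samples of equal replicate number did not deviate together (correlations of -0.17 to 0.20 between their deviations from the group means), and the labels tie no number to a shared batch, so the numbers were not taken to pair samples. With the replicate block, the p300/CBP compound called 5 members and 1311 genes in non-induced cells and 530 genes in induced cells, the PCAF/GCN5 compound called 14 genes in non-induced cells, induction called 5 members, and the contrast of compounds called 0 members and 46 genes in non-induced cells and 2 members in induced cells. At these depths CYP51A1, with as few as 44 counts in a library, had the widest errors, and small differences in it were not detectable.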
